A study of Homo sapiens with 30 samples.

Results

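Lipid and cholesterol metabolism genes were examined in the open chromatin of 2 androgen-responsive cell lines, LNCaP and VCaP, both established from human prostate cancer. The genes were 34 of the 19974 protein-coding genes in the RefSeq annotation of GRCh38 (hg38). They were chosen by their function in lipid metabolism. Every deposited peak whose summit lay within 50 kb of the body of one of these genes was taken, which gave 17937 of 4643932 peak entries. These fell into 1488 of 443959 regions, each a window of 250 bp to either side of a summit. Of the 1488, 79 had their centre within 1 kb of the start of a member gene, 89 within 1 kb of the start of another gene, and 1320 were distal, meaning farther from any start. Distances to a start are to the nearest annotated start of a member gene, and some members have several. A region near a gene is not shown to control it. In bulk libraries a site open in fewer cells and a site less open in all cells cannot be told apart.

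Cells make fatty acids from acetyl-CoA, which ACLY supplies and which ACACA, ACACB and FASN turn into palmitate; SCD and the FADS enzymes then add double bonds and the ELOVL enzymes lengthen the chain. Cholesterol is made through the mevalonate pathway, and the SREBP transcription factors, held back by the INSIG proteins and escorted by SCAP, switch on both pathways when sterols are low. Surplus cholesterol is esterified by SOAT1 and stored, or exported through ABCA1. Prostate cancer cells are known to make and store lipid under androgen, and FASN, SCAP and sterol synthesis genes are known androgen-responsive genes in this tissue.

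The assay was Omni-ATAC-seq, in which the Tn5 transposase cuts and tags open DNA. LNCaP, whose androgen receptor carries a point mutation, was grown in RPMI 1640, and VCaP, whose receptor gene is amplified, in DMEM. All cells spent 48 h in 8% charcoal-stripped serum, which removes steroids, and then 24 h with vehicle or R1881, a synthetic androgen. The study was concerned with chromatin at low against high androgen and a growth response that is not linear in dose. LNCaP received vehicle, 0.03, 0.06, 0.1 or 10 nM (replicates 3, 4 and 5) and VCaP vehicle, 0.01, 0.03, 0.06 or 10 nM (replicates 1, 2 and 4), so that each of the 10 groups held 3 libraries (n = 3 throughout). "Low doses" are the 3 doses below 10 nM in each line. The labels do not say that replicates were separate cultures, so p-values measure the spread between these libraries, which may be technical. The lines differed in medium and in everything else that sets them apart, so a line difference cannot be told apart from these.

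Each region was given, in each library, the rank of its strongest overlapping peak by the deposited −log10 p, as a percentile from just above 0 (weakest) to 100 (strongest). Differences are in percentile points. A rank is relative to the other peaks of the same library, so it can fall where the signal itself does not. Higher, lower, rise and fall refer to ranks. Summit pileups (fragments over the summit, recovered from the lists) are given at some regions and are not scaled for depth. The LNCaP lists were 135254 to 223998 entries long and the VCaP lists 105034 to 170787, and the read numbers are unknown. Ranks were taken over the strongest 134750 entries of each LNCaP list and the strongest 104726 of each VCaP list. A value of 0 therefore means that no peak was ranked, either because none was listed or because the listed one was weaker than those entries. Of the 3131 values of 0 at tested member regions in LNCaP 19.4% had such a weaker entry, and of the 2368 in VCaP 17.4%. The background pileup recovered from the lists, a measure of relative depth, was 3.06 to 5.26 in LNCaP and 1.79 to 2.74 in VCaP, except in VCaP vehicle replicates 1 and 2, at 1.14 and 1.09. Among epithelial or luminal prostate markers, EPCAM, CDH1, KRT18, HOXB13 and TMPRSS2 had a deposited peak within 1 kb of the start in all 15 libraries of both lines. KLK3 had one in 15 LNCaP libraries and 0 VCaP libraries, and KRT8 in 1 and 9. Among markers of other cells, PTPRC, CDH5 and TP63 had none in either line, while CD3E had one in 6 LNCaP and 12 VCaP libraries, MYH11 in 12 and 5, DES in 6 and 7, KRT5 in 5 and 4, COL1A1 in 0 and 4, PECAM1 in 0 and 2 and COL3A1 in 0 and 1.

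The stretches before the starts are printed for 5 members that the results below turn on. Each is the 250 bases that end just before the start, from the RefSeq promoter table of GRCh38.p14, and runs 5′ to 3′ on the strand of the gene. Capitals mark CCAAT boxes, GC boxes (GGGCGG) and the sterol response element TCACNCCAC, found on either strand. SOAT1 (chr1:179293547-179293796, plus strand) is shown because regions around it were called for dose while its start was not. SREBF2 (chr22:41832855-41833104, plus strand) is shown for its sterol element and for a region just inside it that rose in VCaP. SCD (chr10:100346983-100347232, plus strand) is shown because a region in its last part fell in both lines. MSMO1 (chr4:165327419-165327668, plus strand) had the highest start in LNCaP. CPT1A (chr11:68844278-68844527, minus strand) had an annotated start that differed between the lines.
SOAT1: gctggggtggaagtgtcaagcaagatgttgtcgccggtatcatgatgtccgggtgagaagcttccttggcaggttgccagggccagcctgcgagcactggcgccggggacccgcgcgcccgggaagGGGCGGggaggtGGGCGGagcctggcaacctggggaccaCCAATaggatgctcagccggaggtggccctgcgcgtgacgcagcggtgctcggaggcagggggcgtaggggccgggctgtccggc
SREBF2: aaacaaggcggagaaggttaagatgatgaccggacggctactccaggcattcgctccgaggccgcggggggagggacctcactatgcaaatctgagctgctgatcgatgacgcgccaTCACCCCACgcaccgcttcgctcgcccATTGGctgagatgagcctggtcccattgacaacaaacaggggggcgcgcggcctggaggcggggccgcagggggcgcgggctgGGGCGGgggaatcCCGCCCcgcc
SCD: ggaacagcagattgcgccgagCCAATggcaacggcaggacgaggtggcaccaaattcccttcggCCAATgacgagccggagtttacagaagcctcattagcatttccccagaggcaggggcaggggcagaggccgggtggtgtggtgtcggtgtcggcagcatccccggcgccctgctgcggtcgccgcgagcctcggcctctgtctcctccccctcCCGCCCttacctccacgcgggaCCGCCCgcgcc
MSMO1: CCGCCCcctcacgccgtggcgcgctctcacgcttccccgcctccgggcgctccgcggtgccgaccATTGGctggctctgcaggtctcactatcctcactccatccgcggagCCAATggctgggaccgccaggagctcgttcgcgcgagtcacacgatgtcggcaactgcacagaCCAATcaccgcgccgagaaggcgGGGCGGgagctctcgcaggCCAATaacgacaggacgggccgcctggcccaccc
CPT1A: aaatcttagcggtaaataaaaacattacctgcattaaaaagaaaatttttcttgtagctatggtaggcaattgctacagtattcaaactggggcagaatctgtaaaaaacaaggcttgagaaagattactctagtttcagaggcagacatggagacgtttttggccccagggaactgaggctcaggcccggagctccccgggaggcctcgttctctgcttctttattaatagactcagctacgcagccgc

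The stretch of MSMO1 holds 4 CCAAT boxes and 2 GC boxes, that of SCD 2 and 2, and those of SOAT1 and SREBF2 1 and 2 each. The sterol element of SREBF2 begins 133 bases before the start. In CPT1A neither box was found, and 44.4% of its bases are G or C, against 67.2% to 70.4% in the other 4. The table holds 30 of the 34 members, without FDFT1, SQLE, SCARB1 and FASN. GC boxes were found in 26 of the 30 (86.7%, against 56.0% of 15813 promoters of the same length) and CCAAT boxes in 14 (46.7%, against 34.4%). ACACB, CPT1A and FADS2 held neither. The sterol element was found in 1 (3.33%, against 0.885%). The full androgen response element, AGAACA and its inverted repeat with 3 bases between them, was found in none of the 30 and in none of the 15813, and the shorter AGAACA in none of the 30 and in 9.41% of all. Both strands were searched, CCAAT and GC boxes can share bases, and every full androgen element holds the shorter one. A match of letters is a description and not a binding site.

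Starts of lipid genes were open in both lines. A deposited peak lay within 1 kb of the start in all 15 libraries for 32 of 34 members in LNCaP (94.1%, against 64.2% of all protein-coding genes) and for 33 of 34 in VCaP (97.1%, against 63.5%). The median over members of the start region's mean rank was 96.1 in LNCaP and 95.8 in VCaP. It lay above 90 at 26 and 25 members and above 80 at 30 and 29. Start ranks were not summarised over all protein-coding genes, so these values are a description and not a trait of lipid genes. A single start region was taken per gene in each line, and at some members it differed between the lines. MSMO1, a C4-demethylase of sterol synthesis, had mean ranks of 99.98 in LNCaP and 99.96 in VCaP. SQLE, which oxidises squalene, had 99.91 and 99.97, and HMGCS1, which makes HMG-CoA, had 99.77 and 99.94. ACACA, the first committed enzyme of fatty acid synthesis, had 99.41 and 99.60.

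At the other end, ABCA1, the cholesterol exporter, had 16.7 in LNCaP and 70.2 in VCaP, and SCD5, a desaturase, had 73.3 and 63.8. For FDFT1, the squalene synthase, a peak at an end of the annotated gene body was listed in 3 LNCaP libraries and 1 VCaP library. For FDFT1, SQLE, SCARB1 and FASN the annotation used here gives no strand, so the start could be either end of the gene. A start farther inside the gene body would be missed, so the low FDFT1 value does not show a closed promoter. Another FDFT1 region, 6.53 kb from an end of the gene, had enough ranked peaks to be tested in both lines. CPT1A, which carries fatty acids into mitochondria for oxidation, was listed at its annotated start in all 15 VCaP libraries and in 5 of 15 LNCaP libraries. CPT1A regions inside the gene, 2.37, 3.3 and 4.87 kb from that start, had enough ranked peaks to be tested in both lines. A start farther inside would be missed here too, so the low LNCaP value does not show a closed CPT1A promoter.

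**Figure D1:**
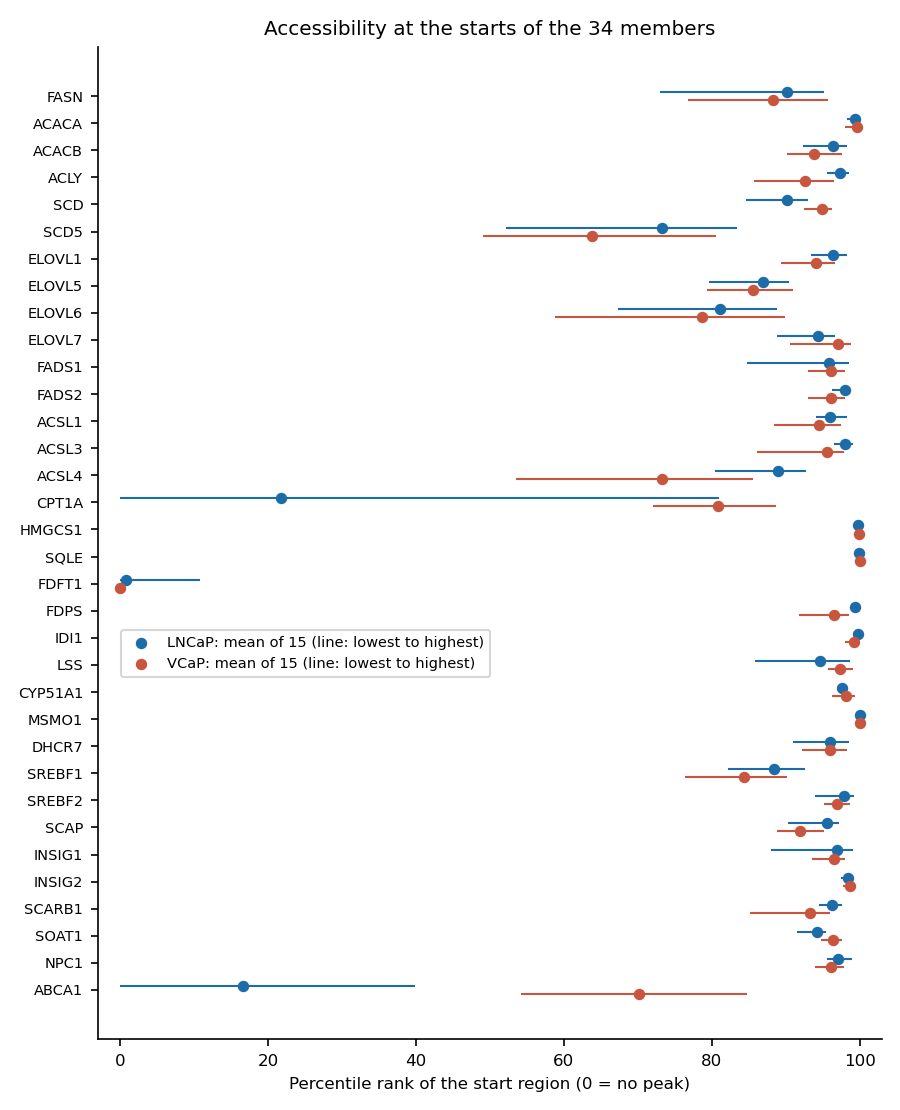
Mean percentile rank over 15 libraries (horizontal axis, 0 to 100) of the start region of each of the 34 members in LNCaP and VCaP, with lines from the lowest to the highest library. Most starts sit above 90 in both lines, and ABCA1 and CPT1A sit lower in LNCaP than in VCaP.

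The LNCaP libraries with a peak at the start of CPT1A were the replicate 5 library of every group. Their ranks at chr11:68843809-68844309 were 80.9 in vehicle, 69.1 at 0.03 nM, 65.1 at 0.06 nM, 56.1 at 0.1 nM and 55.2 at 10 nM, and the other 10 libraries were at 0. In VCaP the ranks ran from 72.03 to 88.7 over all 15 libraries. The line difference, LNCaP minus VCaP over the conditions that both received, was -61.3 percentile points (SE 9.03, adjusted p = 3.26e-06) by limma with Benjamini-Hochberg adjustment, and the ranks of replicate 5 overlapped those of VCaP. Replicate 5 had the highest background pileup of its group in 4 of the 5 groups, and the part of depth in the CPT1A value was not tested. The start of ABCA1 (chr9:104927904-104928404) ran from 0 to 39.9 in LNCaP and from 54.2 to 84.7 in VCaP, without overlap, a difference of -66.9 percentile points (SE 3.94, adjusted p = 2.81e-13).

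Beyond the starts, 1085 of the 1488 regions had a ranked peak in at least 1 LNCaP library and 1115 in at least 1 VCaP library. Tests were run within a line where 3 or more of its 15 libraries had a ranked peak, at 722 regions in LNCaP (78 own starts, 73 other starts, 571 distal) and 544 in VCaP (75, 77 and 392). A peak was ranked in all 15 libraries at 303 regions in LNCaP and 199 in VCaP. It was ranked in all 30 at 180 regions, which is 12.1% of the 1488 against 7.32% of all regions. Regions that passed only through the group where they are high had to differ, so the counts below are descriptions set beside the same counts over all regions. Of the regions called higher at 10 nM, 8 in LNCaP and 7 in VCaP (5 of these near ACSL3) had a ranked peak in the 3 libraries at 10 nM and in no other library of the line, as 1 called lower in LNCaP had in vehicle. A region was called where the adjusted p over all regions tested was under 0.05. Neighbouring regions can be overlapped by 1 wide peak and are then counted separately.

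At 10 nM against vehicle in LNCaP, 96 of 722 regions were called higher (13.3%, against 15.7% of all 188406 regions tested) and 65 lower (9.0%, against 9.62%). The members' shares were below those of all regions. Calls lay near 31 of the 34 genes, the exceptions being FADS1, HMGCS1 and CYP51A1. The same count was not made over all protein-coding genes, and a gene with many tested regions can have a call more easily. Distal regions made up most of them, with 93 of 571 higher and 61 lower (16.3% and 10.7%, against 17.8% and 10.1% of all distal regions). Own starts were called at 5 of 78 regions, which were those of SCD5 and SREBF1 (lower, the latter 2 adjacent regions that share a peak) and of ACSL3 and ACACB (higher). The ACACB region had a ranked peak only in the libraries at 10 nM, so its call was fixed by the filter. The strongest ACACB start region was not called. Summit pileups at the SREBF1 start were 243, 327 and 131 in vehicle and 342, 381 and 279 at 10 nM. Near a start of any gene, 1.99% of member regions were called higher and 2.65% lower, against 2.14% and 6.5% of all such regions. Other settings moved the split: with all entries as deposited, 159 were higher and 22 lower, and with peaks ranked by fold enrichment 78 and 150.

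Low doses in LNCaP gave 32 calls higher (4.43%, against 5.74% of all regions) and 8 lower (1.11%, against 1.51%). By single dose, 13 regions were higher and 1 lower at 0.03 nM (against 2.02% and 0.254% of all), 31 and 4 at 0.06 nM (against 4.68% and 0.591%) and 44 and 7 at 0.1 nM (against 7.05% and 2.0%). With all entries as deposited, the low-dose split was 41 higher and 3 lower, with normal scores of the ranks 36 and 2, and with a peak required in 8 libraries 38 and 4. None of the 40 calls lay near a start of any gene, where limma gave 1 region higher and 0 lower at an unadjusted p under 0.05. Against the low doses, 10 nM gave 49 calls higher (6.79%, against 8.88%) and 35 lower (4.85%, against 5.79%). This split became 91 and 12 with entries as deposited, 39 and 98 by fold enrichment, and 19 and 32 with a peak in 8 libraries. Without 10 nM replicate 4 or 5 the calls numbered 54 or 42.

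In VCaP, 36 of 544 regions were called higher at 10 nM (6.62%, against 6.1% of all 142091 tested) and 10 lower (1.84%, against 2.63%), near 23 genes. Here too the count of genes was not made over all protein-coding genes. Of the calls, 33 higher and 10 lower were distal (8.42% and 2.55% of 392, against 7.2% and 3.01% of all distal regions). The 3 others, all higher, lay at own starts, of SREBF2 and SCARB1, so that 1.97% of member regions near a start were called higher, against 0.981% of all such regions (0.87% were called lower). Without the shallow vehicle replicates 1 and 2, 7 higher and 2 lower calls were made, with a peak in 8 libraries 16 and 9, and with entries as deposited 46 and 5. Without 10 nM replicate 1 the calls in both directions numbered 26. Low doses gave 6 calls higher (1.10%, against 0.48%) and 0 lower (against 0.165%). At an unadjusted p under 0.05 limma gave 38 and 25, and no other tool was run. The 6 lay at ACACA, ELOVL7, SREBF2 and SCARB1, and 2 of them, at SREBF2 and SCARB1, were kept without the shallow libraries. Without vehicle replicate 4, 14 regions were called. Against the low doses, 10 nM gave 20 calls higher (3.68%, against 4.0%) and 5 lower (0.919%, against 1.14%), which became 1 and 2 with a peak in 8 libraries. Leaving out 10 nM replicate 1, 2 or 4 gave 10, 15 or 16 calls in all.

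**Figure D2:**
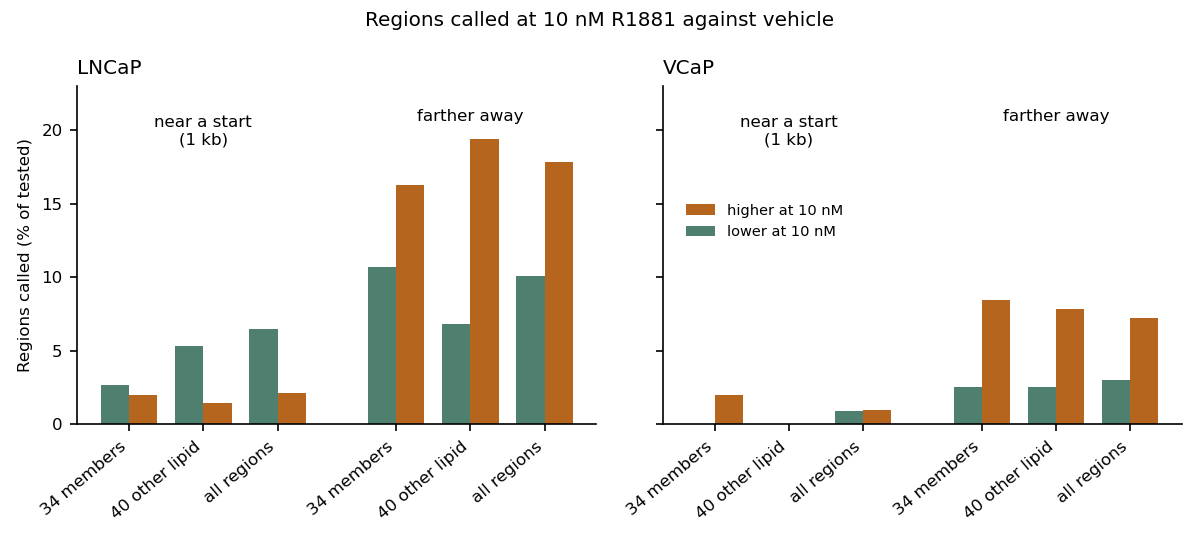
Share of tested regions called higher or lower at 10 nM against vehicle (percent, bars from 0) for the 34 members, 40 other lipid genes and all regions, near a gene start and farther away, in LNCaP and VCaP. Shares are larger away from starts in every set, and the members' distal shares in LNCaP are 16.3% higher and 10.7% lower beside 17.8% and 10.1% of all distal regions.

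Levels along the doses differed in the 2 directions and lines. Over the member regions called higher in LNCaP the median of the group means was 0 in vehicle, 14.1 at 0.03 nM, 37.9 at 0.06 nM, 44.8 at 0.1 nM and 60.5 at 10 nM. Over those called lower it was 67.2, 61.2, 56.0, 54.2 and 26.6. All regions called in LNCaP had medians of 0, 12.9, 34.5, 44.9 and 62.3 for those higher and 69.5, 63.4, 58.1, 51.98 and 26.6 for those lower. In VCaP the regions called higher had medians of 2.54, 4.08, 9.86, 24.5 and 59.6 from vehicle to 10 nM, and those called lower 74.4, 63.6, 48.2, 33.7 and 14.2. Over all regions called in VCaP these were 0, 2.63, 10.7, 33.7 and 65.6 and 74.9, 66.2, 56.6, 51.04 and 16.9. These are descriptions, since the regions were chosen by their ends, and single regions below departed from them.

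Among the 4 genes of fatty acid synthesis, 12 of 142 regions were higher and 10 lower in LNCaP at 10 nM, and 2 and 2 of 113 in VCaP. Counts by role are to be read against the shares of all regions given above, 15.7% higher and 9.62% lower in LNCaP and 6.1% and 2.63% in VCaP, and they hold for ranks by −log10 p. FASN, the fatty acid synthase, had 4 higher and 0 lower of 37 regions in LNCaP. At chr17:82134049-82134549, 36.1 kb from the FASN start and inside CCDC57, LNCaP ranks were 27.6, 31.97 and 49.4 in vehicle, 62.4, 62.5 and 60.6 at 0.03 nM, 82.5, 80.7 and 68.7 at 0.06 nM, 89.01, 91.9 and 85.3 at 0.1 nM and 94.5, 95.8 and 96.5 at 10 nM. No LNCaP library at any dose overlapped the vehicle libraries, and the region rose by 59.3 percentile points (SE 5.03, adjusted p = 1.52e-06) at 10 nM and by 39.7 at low doses (adjusted p = 1.52e-05). In VCaP the vehicle ranks were 88.1, 64.3 and 88.1 and the 10 nM ranks 97.1, 89.3 and 98.6, which did not overlap, with a change of 14.9 percentile points (SE 5.59, adjusted p = 0.133). Over the shared conditions the region ranked 31.3 points lower in LNCaP (adjusted p = 5.08e-09), and the lines differed in their change at 10 nM by 61.4 percentile points (SE 8.94, adjusted p = 0.000175). That comparison, like every comparison between lines, was made on lists shortened to the shortest of all 30.

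A second FASN region, chr17:82113916-82114416, 15.9 kb from the start, was at 0 in all LNCaP vehicle and 0.03 nM libraries and at 44.98, 22.7 and 4.54 at 0.06 nM, 56.6, 67.5 and 36.4 at 0.1 nM and 82.1, 76.96 and 80.4 at 10 nM. It rose by 79.8 percentile points (SE 10.6, adjusted p = 6.5e-05). VCaP had 53.8, 0 and 65.1 in vehicle and 93.2, 91.996 and 95.6 at 10 nM, with a change of 53.96 and an adjusted p of 0.0512. The third, chr17:82061391-82061891, lies inside DUS1L and 16.7 kb from the opposite end of FASN to that used for the first and second regions. It was listed in LNCaP only at 0.1 and 10 nM. At 10 nM it reached 57.1, 32.1 and 35.6, a rise of 41.6 percentile points (SE 7.19, adjusted p = 0.000544). VCaP was high there throughout, at 81.5, 72.98 and 81.3 in vehicle and 98.4, 95.1 and 98.9 at 10 nM, and rose by 18.9 percentile points (SE 4.12, adjusted p = 0.00761), a call lost without the shallow vehicle libraries. The level over shared conditions was 82.8 percentile points (SE 3.40, adjusted p = 1.92e-16) lower in LNCaP. All 15 VCaP libraries lay above all LNCaP libraries.

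ACACA, acetyl-CoA carboxylase 1, had 6 higher and 7 lower of 59 regions in LNCaP. Its region at chr17:37315547-37316047 lies in the gene body, 16 kb from the nearest of its 3 annotated starts. The region had LNCaP ranks of 67.4, 62.1 and 52.5 in vehicle, 88.3, 83.03 and 65.7 at 0.03 nM and 88.8, 80.3 and 84.5 at 10 nM. It rose by 23.9 percentile points (SE 5.25, adjusted p = 0.00331), and by 23.1 at low doses (adjusted p = 0.00299). In VCaP the ranks were 10.4, 0 and 0 in vehicle, 61.4, 4.26 and 68.2 at 0.01 nM, 78.02, 80.6 and 80.6 at 0.03 nM, 84.6, 84.4 and 88.3 at 0.06 nM and 87.8, 84.1 and 84.3 at 10 nM. Every VCaP library from 0.03 nM up lay above every vehicle library, with rises of 81.9 percentile points (SE 12.7, adjusted p = 0.000915) at 10 nM and 66.6 at low doses (adjusted p = 0.00484). The 10 nM call held without the shallow vehicle libraries, and the low-dose call did not.

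Other ACACA regions fell in LNCaP. At chr17:37142881-37143381, 157.0 kb from the nearest start, the ranks were 66.6, 72.03 and 65.4 in vehicle and 0 in all 3 libraries at 10 nM. This was a fall of 68 percentile points (SE 16.8, adjusted p = 0.00743), and no VCaP library had a ranked peak there. At chr17:37183117-37183617, 116 kb from the nearest start, LNCaP fell from 75.7, 75.3 and 73.8 to 32.8, 12.1 and 0, a change of -60.01 percentile points (SE 7.22, adjusted p = 2.92e-05), without overlap. VCaP stayed low, with 17.5, 0 and 0.766 in vehicle and 11.6, 0 and 2.40 at 10 nM. ACACB, the carboxylase tied to the control of fatty acid oxidation, had a region at chr12:109311818-109312318 inside MYO1H that ranked 93.2, 92.8 and 95.03 in LNCaP vehicle and 88.3, 89.98 and 90.5 at 10 nM, a fall of 4.08 (adjusted p = 0.00715). It ranked 95.5, 92.1 and 94.4 and 86.99, 81.2 and 86.9 in VCaP, a fall of 8.99 (adjusted p = 0.00726) that was lost without the shallow vehicle libraries. In LNCaP the summit pileups of that ACACB region were 154, 179 and 81 in vehicle and 160, 200 and 165 at 10 nM. ACLY, ATP citrate lyase, had 1 call of 23 in LNCaP at 10 nM, and at chr17:41977922-41978422 ranked 51.8 to 75.1 in the 15 LNCaP libraries and 0 in all 15 of VCaP, of which 3 listed a weaker entry, a line difference of 53.4 percentile points (SE 3.17, adjusted p = 3.48e-13).

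Desaturases and elongases had 26 higher and 15 lower of 159 regions in LNCaP and 6 and 4 of 121 in VCaP. SCD, the main delta-9 desaturase, had 1 call in LNCaP, in the gene body at chr10:100359447-100359947, 12.5 kb from the start. LNCaP ranks were 60.7, 72.8 and 68.2 in vehicle, 47.1 to 63.9 at low doses and 5.63, 0 and 23.3 at 10 nM. The region fell by 57.6 percentile points (SE 7.43, adjusted p = 5.16e-05) at 10 nM, with no overlap between 10 nM and any other group. VCaP ranks were 69.97, 80.7 and 73.9 in vehicle, 61.7, 68.2 and 63.4 at 0.01 nM, 63.3, 0 and 68.6 at 0.03 nM, 27.9, 0 and 45.98 at 0.06 nM and 0 in all 3 libraries at 10 nM. VCaP fell by 74.9 percentile points (SE 16.9, adjusted p = 0.00923), a call lost without the shallow vehicle libraries. The start of SCD5 (chr4:82798600-82799100) was the member start that fell most in rank in LNCaP, from 82.8, 83.4 and 79.8 in vehicle to 73.5, 60.4 and 52.2 at 10 nM (-19.99 percentile points (SE 4.88, adjusted p = 0.00678)). Its LNCaP summit pileups did not drop in the same way, with 82, 97 and 42 in vehicle and 90, 90 and 65 at 10 nM. In VCaP the same start had 58.6, 68.4 and 63.6 and 59.01, 80.5 and 58.7, which overlapped.

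ELOVL7, an elongase of saturated very long chains, had 8 higher and 0 lower of 20 regions in LNCaP. The region chr5:60886057-60886557, 42.0 kb from its start and inside ERCC8, had ranks of 27.6, 0 and 0 in LNCaP vehicle, 78.4, 69.3 and 70.8 at 0.03 nM, 68.1, 76.3 and 74.1 at 0.06 nM, 68.9, 67.9 and 73.9 at 0.1 nM and 73.1, 77.2 and 65.1 at 10 nM. It rose by 62.8 percentile points (SE 5.73, adjusted p = 4.14e-06) at low doses and by 62.6 at 10 nM (adjusted p = 1.64e-05), and the ranks at the lowest LNCaP dose overlapped those at the highest. VCaP had no ranked peak there in vehicle, 78.9, 86.5 and 0 at 0.01 nM, 86.1, 84.1 and 81.2 at 0.03 nM and 81.2, 82.8 and 76.7 at 10 nM. The VCaP rise was 80.3 percentile points (SE 15.5, adjusted p = 0.00344) at 10 nM and 74.5 at low doses (adjusted p = 0.00899), and both calls were lost without the shallow vehicle libraries.

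ELOVL6, which lengthens palmitate to stearate, had 4 higher and 3 lower of 30. At chr4:110058620-110059120, 140.0 kb into ELOVL6, LNCaP ranks were 23.8, 0 and 0 in vehicle, 0, 0 and 27.5 at 0.03 nM, 65.95, 56.1 and 55.4 at 0.06 nM and 84.2, 78.9 and 81.4 at 10 nM, a rise of 73.6 percentile points (SE 8.98, adjusted p = 3.28e-05). VCaP was at 0 up to 0.03 nM, at 46.3, 52.2 and 0 at 0.06 nM and at 61.8, 65.9 and 62.1 at 10 nM, a rise of 63.3 percentile points (SE 12.9, adjusted p = 0.00479) that was lost without the shallow vehicle libraries. At 0.03 nM the 42.0 kb region of ELOVL7 was thus high in both lines and this one was low in both. ELOVL5, an elongase of polyunsaturated chains, had 4 higher and 5 lower of 25. Its region chr6:53300942-53301442, inside the gene, went from 58.95, 59.3 and 66.2 in LNCaP vehicle to 93.3, 89.7 and 90.8 at 10 nM (29.8 percentile points (SE 3.12, adjusted p = 9.51e-06)), and in VCaP from 0 in all 3 to 29.2, 51.1 and 51.8 (44.02 percentile points (SE 12.8, adjusted p = 0.0393)). The VCaP call of ELOVL5 was lost on leaving out any one of 5 of the 6 libraries, all but 10 nM replicate 1.

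**Figure D3:**
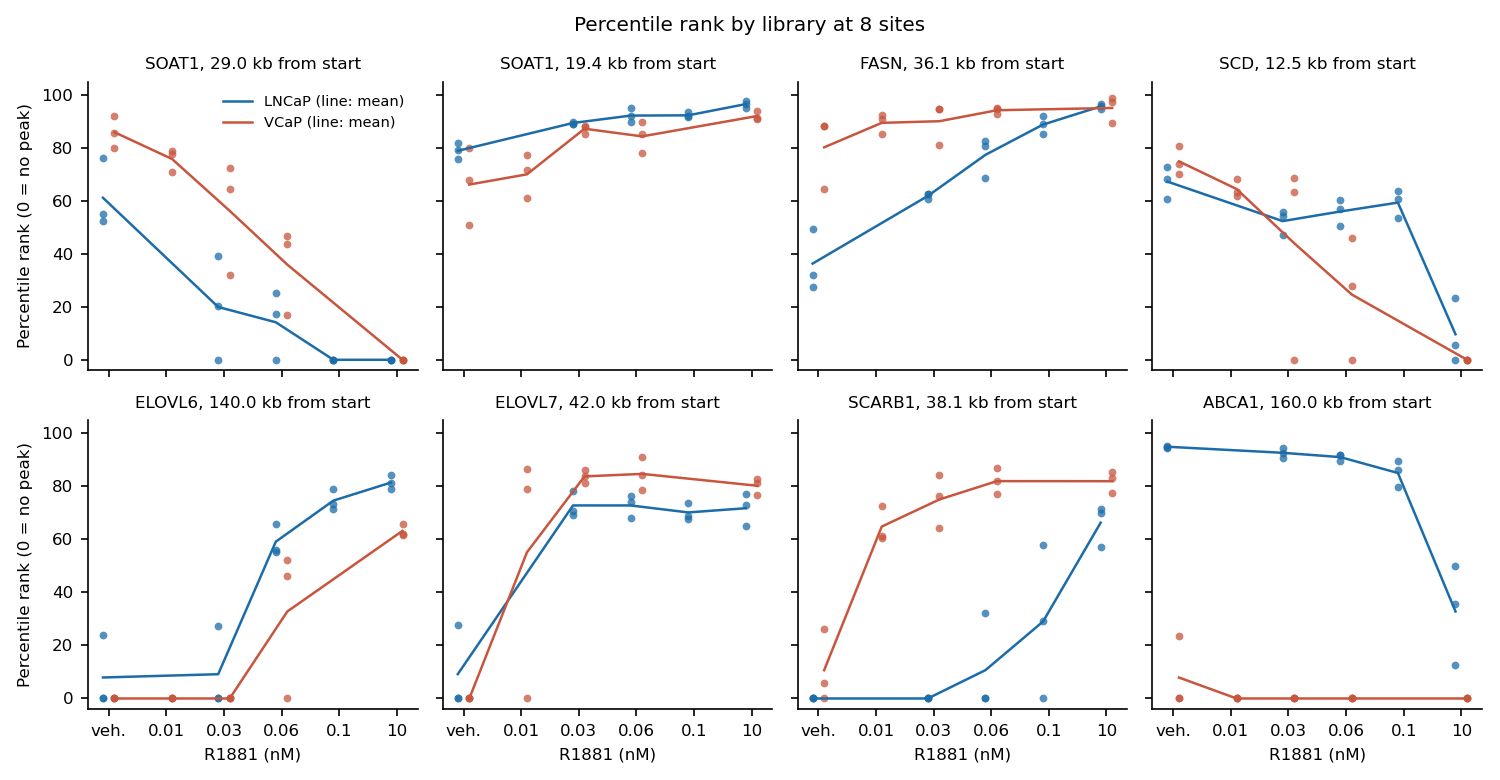
Percentile rank (vertical axis, 0 to 100, 0 means no peak ranked) by R1881 dose (horizontal axis, categories in nM) at 8 regions, named by gene and distance from its start; points are libraries, lines join group means, LNCaP is blue and VCaP red. The ELOVL7 region is high from the lowest LNCaP dose on, and the SCD region in LNCaP drops between 0.1 and 10 nM.

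FADS1 and FADS2, the delta-5 and delta-6 desaturases, lie side by side. FADS1 had no call in LNCaP at 10 nM and FADS2 had 2 higher and 1 lower of 17. The region chr11:61828741-61829241 lies within FADS2, 12.0 kb from the nearest annotated start of a member, that of FADS1. A FADS2 start farther inside the gene would be missed. At this region the 15 LNCaP libraries ranked 92.2 to 98.4, while 14 VCaP libraries were at 0 and 1 at 13.1. The line difference was 93.9 percentile points (SE 2.45, adjusted p = 4.23e-20). The reverse held 10.5 kb from the start of ELOVL5, at chr6:53359186-53359686, where all LNCaP libraries were at 0 (1 in vehicle listed a weaker entry) and VCaP ranked 89.1 to 96.6, a difference of -93.4 percentile points (SE 2.21, adjusted p = 1.18e-20). The FADS2 region was not called for dose in LNCaP, and the ELOVL5 region was not called for dose in VCaP. In the other line each had too few ranked peaks to be tested for dose. For ELOVL1, an elongase of very long chains, chr1:43366139-43366639 rose in both lines by 22.2 and 74.1 (adjusted p = 0.03 and 0.0136). Neither ELOVL1 call held when a summit had to lie inside the region, and the VCaP one was also lost without the shallow vehicle libraries.

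Acyl-CoA synthetases and CPT1A, which activate fatty acids and take them to oxidation, had 14 higher and 8 lower of 85 regions in LNCaP and 9 and 1 of 79 in VCaP. ACSL3, an androgen-responsive synthetase of lipid droplets, accounted for 7 of the 9 in VCaP (7 of 27 regions), of which 5 had a ranked peak only in the 10 nM libraries. ACSL4, which prefers arachidonate, had a region 6.94 kb before its start (chrX:109739951-109740451) with no ranked peak in LNCaP vehicle and ranks of 75.5, 77.7 and 73.2 at 0.03 nM, 0, 87.2 and 76.4 at 0.06 nM, 82.5, 78.6 and 83.7 at 0.1 nM and 88.2, 86.7 and 89.1 at 10 nM. It rose by 87.98 percentile points (SE 15.3, adjusted p = 0.000624) at 10 nM and by 70.5 at low doses (adjusted p = 0.00227). At 0.06 nM 1 of the 3 libraries had no ranked peak. VCaP had 39.7, 0 and 0 in vehicle and 52.5, 0 and 0 at 10 nM, overlapping, with a change of 4.25 (adjusted p = 0.932).

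ACSL1, a synthetase of triglyceride synthesis and oxidation, had 4 higher and 1 lower of 25 regions in LNCaP. At chr4:184792924-184793424, in the gene and 12.4 kb from a start of ACSL1, the ranks were 33.2, 0 and 0 in vehicle and 84.6, 78.7 and 80.5 at 10 nM, a rise of 70.2 percentile points (SE 11.5, adjusted p = 0.000368). At chr4:184807251-184807751, 1.03 kb from a start of ACSL1, they were 72.9, 82.2 and 78.7 and 30.8, 38.03 and 20.7, a fall of 48.1 percentile points (SE 6.31, adjusted p = 5.9e-05). Neither pair of groups overlapped in rank. The summit pileups of the second region did overlap, with 79, 113 and 46 in vehicle and 61, 97 and 62 at 10 nM. CPT1A had 2 higher and 4 lower of 27 in LNCaP, and in VCaP a region 109.0 kb from its start, inside TESMIN (chr11:68735448-68735948), was at 0 in vehicle and at 0.01 and 0.03 nM, at 28.3, 0 and 15.1 at 0.06 nM and at 84.2, 84.2 and 79.6 at 10 nM. It rose by 82.7 percentile points (SE 10.9, adjusted p = 0.00039), also without the shallow vehicle libraries, and LNCaP ranks there ranged from 0 to 23.4.

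Sterol synthesis genes had 22 higher and 8 lower of 131 regions in LNCaP and 8 and 0 of 104 in VCaP. The 8 higher VCaP calls lay near 4 of the 9 genes. MSMO1 had 3 higher and 2 lower of 14 in LNCaP and 3 higher of 8 in VCaP. At chr4:165369522-165370022, 42.1 kb from its start and nearest to CPE, LNCaP ranks were 51.2, 42.2 and 0 in vehicle, 73.6, 71.1 and 70.8 at 0.03 nM and 88.3, 91.5 and 91.1 at 10 nM. It rose by 59.1 percentile points (SE 9.08, adjusted p = 0.000213), with vehicle below all doses. VCaP had no ranked peak in vehicle or at any low dose, although 2 libraries at 0.06 nM listed a weaker entry, and 58.4, 56.1 and 51.8 at 10 nM. The region was tested in VCaP through those 3 libraries alone, so its change of 55.4 is given as a description.

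A second MSMO1 region, chr4:165288886-165289386 inside KLHL2, was highest in rank at low doses in LNCaP. Its ranks were 71.8, 70.2 and 69.96 in vehicle, 83.6, 89.996 and 83.6 at 0.03 nM, 89.3, 91.2 and 90.2 at 0.06 nM, 88.1, 91.03 and 87.7 at 0.1 nM and 86.05, 80.2 and 78.1 at 10 nM. The low doses stood 17.6 percentile points (SE 1.84, adjusted p = 1.62e-05) above vehicle and 10 nM stood 10.8 percentile points (SE 2.25, adjusted p = 0.00225) above vehicle. For 10 nM against the low doses the difference was -6.84 percentile points (SE 1.84, adjusted p = 0.0198). Its LNCaP summit pileups at 10 nM, 126, 122 and 95, lay within those at the low doses, 48 to 160. VCaP went from 23.5, 0 and 0 in vehicle through 74.1, 76.2 and 75.8 at 0.06 nM to 66.3, 77.3 and 77.1 at 10 nM, a rise of 65.8 percentile points (SE 15.4, adjusted p = 0.0118) that was lost without 10 nM replicate 4 and without the 2 shallow vehicle libraries.

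DHCR7, the last reductase of cholesterol synthesis, had 5 higher and 2 lower of 19 regions in LNCaP and 3 higher of 12 in VCaP. At chr11:71433077-71433577, inside DHCR7 and 15.1 kb from its nearest start, LNCaP had no ranked peak in vehicle or at 0.03 nM, where 1 library listed a weaker entry, and 64.5, 48.2 and 61.96 at 10 nM, a rise of 58.2 percentile points (SE 7.37, adjusted p = 4.39e-05). VCaP had none in vehicle and 63.95, 43.4 and 48.1 at 10 nM, a rise of 51.8 percentile points (SE 8.59, adjusted p = 0.00134) that was lost without the shallow vehicle libraries. An adjacent region, overlapped by the same peak, gave another of the 3 calls in VCaP, where it was tested through the 10 nM libraries alone. SQLE had 5 higher and 2 lower of 10 in LNCaP, of which the region 7.47 kb from the gene, inside WASHC5, went from 0 in all 3 vehicle libraries to 69.03, 67.7 and 66.5 at 10 nM (67.8 percentile points (SE 9.53, adjusted p = 0.000104)). LSS, the lanosterol synthase, had a region at chr21:46162214-46162714 that went from 67.4, 39.3 and 10.05 in LNCaP vehicle to 80.7, 80.6 and 71.6 at 0.03 nM and 81.9, 85.3 and 89.6 at 10 nM (46.7 percentile points (SE 9.52, adjusted p = 0.00223)). In VCaP the same LSS region had 66.7, 38.3 and 64.7 in vehicle and 79.2, 81.1 and 68.1 at 10 nM, with a change of 19.6 (adjusted p = 0.551).

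FDPS, which makes farnesyl diphosphate, had 1 call of 15 in LNCaP, at chr1:155288615-155289115 inside HCN3. It went from 0 in all 3 vehicle libraries to 47.2, 47.2 and 51.6 at 10 nM (48.6 percentile points (SE 10.3, adjusted p = 0.00254)), and no VCaP library had a ranked peak there. IDI1, the isopentenyl diphosphate isomerase, had a region at chr10:1057939-1058439 that went from 0 in vehicle to 24.99, 49.2 and 54.5 at 10 nM in LNCaP (42.9 percentile points (SE 8.54, adjusted p = 0.00162)) and from 0, 34.7 and 22.2 to 77.4, 78.1 and 76.99 in VCaP (58.5 percentile points (SE 16.8, adjusted p = 0.0377)). The VCaP call of IDI1 was lost without any one of 5 of the 6 libraries, all but vehicle replicate 2, and without the 2 shallow vehicle libraries together. HMGCS1 and CYP51A1, the lanosterol demethylase, had 5 tested regions each in LNCaP and no call at 10 nM.

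The genes of SREBP control had 13 higher and 10 lower of 108 regions in LNCaP and 6 and 2 of 68 in VCaP. SCAP, the escort of the SREBPs, had 6 higher and 1 lower of 26 in LNCaP. Inside the gene at chr3:47443605-47444105, LNCaP ranks were 76.9, 78.5 and 83.6 in vehicle, 85.5, 88.2 and 91.8 at 0.03 nM and 89.2, 87.8 and 93.96 at 10 nM, a rise of 10.7 percentile points (SE 2.16, adjusted p = 0.00186) without overlap. VCaP had 10.2, 0 and 0 in vehicle, 31.1, 16.4 and 27.3 at 0.03 nM, 20.5, 41.8 and 19.2 at 0.06 nM and 62.7, 49.7 and 71.5 at 10 nM, a rise of 57.9 percentile points (SE 12.3, adjusted p = 0.00622) that was lost without the shallow vehicle libraries. The region ranked 53.01 points higher in LNCaP (adjusted p = 8.69e-13). INSIG2, which retains SCAP, had 4 higher and 5 lower of 17. At chr2:118077694-118078194, 10.5 kb before it, LNCaP went from 23.8, 34.9 and 1.16 to 68.2, 45.2 and 59.8 (37.8 percentile points (SE 10.2, adjusted p = 0.0127)), a call lost without 10 nM replicate 3, and VCaP from 14.04, 0 and 0 to 76.3, 75.2 and 51.8 (63.1 percentile points (SE 11.2, adjusted p = 0.00203)), a call lost without the shallow libraries.

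INSIG1 had 3 higher and 0 lower of 19 in LNCaP, of which chr7:155276747-155277247 went from 81.5, 80.1 and 74.9 in vehicle to 89.7, 92.2 and 92.3 at 10 nM (12.6 percentile points (SE 2.10, adjusted p = 0.000423)). SREBF1, which encodes SREBP-1, had 0 higher and 3 lower of 21 in LNCaP. At chr17:17877532-17878032, 40.8 kb from its start and inside TOM1L2, LNCaP ranks were 93.9, 94.7 and 89.8 in vehicle and 90.6, 89.3 and 89.7 at 10 nM, with a change of -2.92 (adjusted p = 0.143). VCaP went from 84.1, 62.6 and 81.9 in vehicle to 13.1, 0 and 24.2 at 10 nM, a fall of 63.8 percentile points (SE 14.2, adjusted p = 0.00848) without overlap. That VCaP call was lost without the shallow vehicle libraries. Within SREBF1, chr17:17819628-17820128 ranked 66.9 to 88.6 in LNCaP and was at 0 in all 15 VCaP libraries.

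SREBF2, which encodes SREBP-2, had 0 higher and 1 lower of 25 in LNCaP. The call was inside the gene at chr22:41903011-41903511, with 88.8, 92.7 and 87.1 in vehicle and 74.4, 76.9 and 77.5 at 10 nM (-13.3 percentile points (SE 2.37, adjusted p = 0.000707)), and 14 of the 15 VCaP libraries had no ranked peak there, 1 of them with a weaker entry. Next to the start whose sequence is printed above, chr22:41833427-41833927 was at 0, 14.1 and 0 in VCaP vehicle and at 95.2 to 98.7 in the 12 treated libraries. It rose by 92.6 percentile points (SE 4, adjusted p = 1.92e-09) at 10 nM and by 92.3 at low doses (adjusted p = 6.9e-11). In LNCaP vehicle it had 0, 99.1 and 31.3 and at 10 nM 98.96, 95.5 and 96.8, with an adjusted p of 0.0523. The VCaP calls of SREBF2 were not made when a summit had to lie inside the region, which is the edge of a wide peak at the start.

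Uptake, storage and export genes had 9 higher and 14 lower of 97 regions in LNCaP (9.28% and 14.4%, against 15.7% and 9.62% of all regions), with 5 and 1 of 59 in VCaP. Counts by role were not made by fold enrichment, under which the split of all members turned. SCARB1, the scavenger receptor that takes up cholesteryl ester from lipoproteins, had 1 higher and 4 lower of 28 in LNCaP and 3 higher and 0 lower of 21 in VCaP. At chr12:124825542-124826042, in the gene and 38.1 kb from its start, LNCaP had no ranked peak in vehicle or at 0.03 nM, 32.1, 0 and 0 at 0.06 nM, 0, 57.9 and 29.2 at 0.1 nM and 70.2, 57.2 and 71.7 at 10 nM, a rise of 66.3 percentile points (SE 12.8, adjusted p = 0.00129). VCaP had 26.2, 0 and 5.77 in vehicle, 61.4, 72.5 and 60.6 at 0.01 nM, 76.5, 84.4 and 64.4 at 0.03 nM, 77.1, 81.97 and 86.97 at 0.06 nM and 77.4, 85.3 and 83.3 at 10 nM. All 12 treated VCaP libraries lay above the vehicle ones, with rises of 71.3 percentile points (SE 8.87, adjusted p = 0.00029) at 10 nM and 63.3 percentile points (SE 7.25, adjusted p = 0.000372) at low doses, both kept without the shallow libraries. At 0.03 nM, a dose both lines received, this SCARB1 region was thus at 0 in LNCaP and high in VCaP.

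The neighbouring SCARB1 region chr12:124828545-124829045, 35.1 kb from the start, went the other way in LNCaP. Ranks were 88.1, 85.7 and 78.6 in vehicle and 54.6, 49.1 and 30.2 at 10 nM, a fall of 39.5 percentile points (SE 5.49, adjusted p = 9.62e-05) without overlap. The LNCaP summit pileups overlapped, with 94, 100 and 45 in vehicle and 61, 78 and 50 at 10 nM. In VCaP the ranks were 92.8, 92.7 and 87.5 and 84.96, 87.8 and 81.2, with a change of -6.35 (adjusted p = 0.463). NPC1, which moves cholesterol out of lysosomes, had a region at chr18:23557506-23558006 inside the gene with no ranked peak in LNCaP vehicle, 38.3, 40.97 and 39.4 at 0.06 nM, 47.9, 56.5 and 51.3 at 0.1 nM and 79.3, 74.02 and 78.9 at 10 nM. It rose by 77.4 percentile points (SE 9.15, adjusted p = 2.55e-05), and no VCaP library had a ranked peak there. NPC1 had 4 higher and 2 lower of 26 in LNCaP.

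ABCA1 had 2 higher and 3 lower of 27 in LNCaP. Inside NIPSNAP3B, 160.0 kb from the ABCA1 start, chr9:104767475-104767975 had LNCaP ranks of 94.5, 95.4 and 95.03 in vehicle, 92.7, 94.5 and 90.9 at 0.03 nM, 91.8, 91.9 and 89.5 at 0.06 nM, 86.05, 89.4 and 79.7 at 0.1 nM and 50.1, 35.7 and 12.7 at 10 nM. It fell by 62.2 percentile points (SE 6.29, adjusted p = 8.7e-06), and 14 of 15 VCaP libraries had no ranked peak. Here the LNCaP summit pileups fell too, from 200, 271 and 78 in vehicle to 42, 45 and 25 at 10 nM. At chr9:104973859-104974359, 46.0 kb before the start, neither line had a ranked peak in vehicle, and 10 nM gave 54.4, 31.9 and 40.5 in LNCaP (42.2 percentile points (SE 7.54, adjusted p = 0.000699)) and 55.4, 40.5 and 38.98 in VCaP (44.97 percentile points (SE 9.96, adjusted p = 0.00822)). The VCaP call there was lost without the shallow vehicle libraries. Near the start of NIPSNAP3B, chr9:104763723-104764223 was at 0 in all LNCaP libraries and at 81.98 to 95.2 in VCaP.

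SOAT1, which esterifies cholesterol for storage in droplets, had 2 higher and 5 lower of 16 regions in LNCaP and 1 and 1 of 9 in VCaP. The 5 lower regions include 2 pairs of neighbours that share a peak. The start, whose sequence is printed above, was listed in all 30 libraries, was not called for dose in either line, and differed by -3.88 points between LNCaP and VCaP (adjusted p = 2.21e-06). The lower call shared by the lines lay 29.0 kb before the start, between genes, at chr1:179264588-179265088. LNCaP ranks were 54.8, 76.1 and 52.5 in vehicle, 39.3, 0 and 20.4 at 0.03 nM, 25.2, 17.3 and 0 at 0.06 nM and 0 in all 6 libraries at 0.1 and 10 nM. VCaP ranks were 92.1, 79.8 and 85.7 in vehicle, 78.7, 70.8 and 77.8 at 0.01 nM, 64.6, 72.2 and 31.8 at 0.03 nM, 43.9, 46.9 and 16.98 at 0.06 nM and 0 in all 3 at 10 nM. The group means thus went down from dose to dose in both lines until no peak was ranked, and peaks were ranked in all VCaP libraries up to 0.06 nM. Weaker entries were listed in the LNCaP library at 0 at 0.06 nM, in 2 of 3 at 0.1 nM and in 1 of 3 at 10 nM, and in no VCaP library at 10 nM. On the lists as deposited the LNCaP ranks at 10 nM were 0, 0 and 5.61, and the 10 nM calls of both lines were made there too.

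LNCaP fell by 61.1 percentile points (SE 10.7, adjusted p = 0.000586) at 10 nM and by 49.8 at low doses (adjusted p = 0.00189). VCaP fell by 85.9 percentile points (SE 12.6, adjusted p = 0.000717), a call kept without the shallow vehicle libraries. SOAT1 ranked 29.9 points lower in LNCaP than in VCaP over the shared conditions at this region (SE 4.69, adjusted p = 7.95e-06). The difference between the lines in the change at 10 nM was 35.9 percentile points (SE 14, adjusted p = 0.197), which did not pass.

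The higher call shared by the lines lay in the SOAT1 gene, 19.4 kb from its start, at chr1:179312900-179313400. LNCaP ranks were 81.6, 79.02 and 75.9 in vehicle, 89.1, 89.9 and 89.02 at 0.03 nM, 89.5, 92.03 and 94.8 at 0.06 nM, 91.9, 91.5 and 93.3 at 0.1 nM and 94.99, 97.8 and 96.6 at 10 nM. LNCaP rose by 17.6 percentile points (SE 1.59, adjusted p = 2.64e-06) at 10 nM and by 12.4 at low doses (adjusted p = 1.69e-05), with vehicle below every treated library. VCaP ranks were 67.7, 79.8 and 50.8 in vehicle, 77.1, 61.1 and 71.7 at 0.01 nM, 85.4, 88.2 and 87.99 at 0.03 nM, 85.3, 77.99 and 89.6 at 0.06 nM and 90.9, 93.9 and 91.2 at 10 nM. VCaP rose by 25.9 percentile points (SE 5.80, adjusted p = 0.00886), also without the shallow libraries, and its 0.01 nM ranks overlapped those of vehicle. The difference between the lines in the change at 10 nM was -3.19 percentile points (SE 6.53, adjusted p = 0.883).

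At chr1:179296625-179297125, 3.08 kb into SOAT1, LNCaP went from 0 in vehicle to 55.2, 42.1 and 37.1 at 10 nM, a rise of 44.8 percentile points (SE 12.8, adjusted p = 0.0173) lost without 10 nM replicate 3, and VCaP had a ranked peak in 1 library, at 18.7. At chr1:179350199-179350699, 56.7 kb from the start, no LNCaP library had a ranked peak, and VCaP had 0, 0 and 0 in vehicle and 39.5, 51.1 and 25.2 at 10 nM, with an adjusted p of 0.0761 for dose and 0.000197 for line. Before the start, chr1:179287488-179287988 went from 86.4, 85.2 and 81.1 to 74.4, 75.997 and 78.1 in LNCaP, a fall of 8.08 percentile points (SE 1.83, adjusted p = 0.00403) that was not called on the lists as deposited. Its LNCaP summit pileups were 82, 92 and 39 in vehicle and 86, 117 and 107 at 10 nM.

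**Figure D4:**
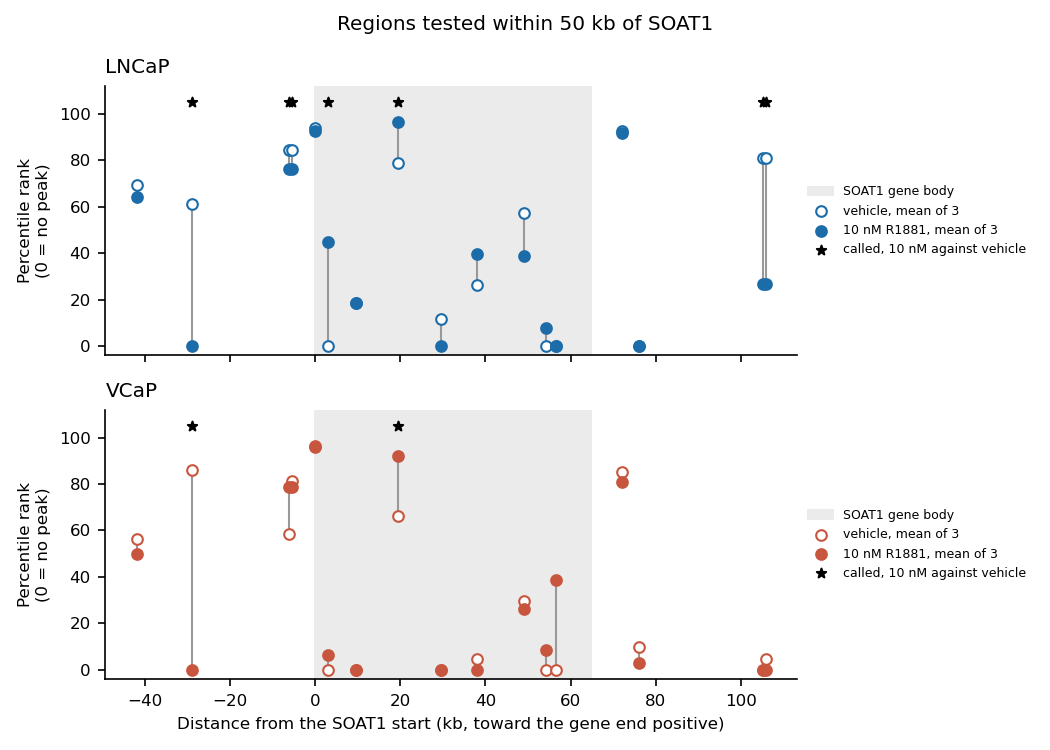
Mean percentile rank (vertical axis, 0 to 100) in vehicle and at 10 nM of the tested regions around SOAT1 by distance from its start in kb (horizontal axis), one panel per line; the grey band is the gene body and stars mark regions called at 10 nM. The region 29.0 kb before the start falls to a mean rank of 0 in both lines, and the LNCaP panel has more stars than the VCaP panel.

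The lines shared part of the 10 nM response. Of 445 member regions tested in both, 19 were called higher in both, which is 19.8% of the 96 called in LNCaP and 52.8% of the 36 called in VCaP. Of all regions these shares were 18.9% and 64.5%. Called lower in both were 7, or 10.8% of 65 and 70.0% of 10, against 8.97% and 43.5%. One region, 93.6 kb from the start of ACSL3, was called in opposite directions, as were 48 of all regions. On the lists as deposited its LNCaP call was not made. Among the 26 called in the same direction, 22 kept both calls when a summit had to lie inside the region, 14 kept the VCaP call without each library in turn, and 5 kept it without the shallow vehicle libraries. The 5 were regions of ACACA (16 kb), MSMO1 (42.1 kb), SCARB1 (38.1 kb) and SOAT1 (29.0 and 19.4 kb from the start), all described above, and that of MSMO1 was tested in VCaP through its 10 nM libraries alone.

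**Figure D5:**
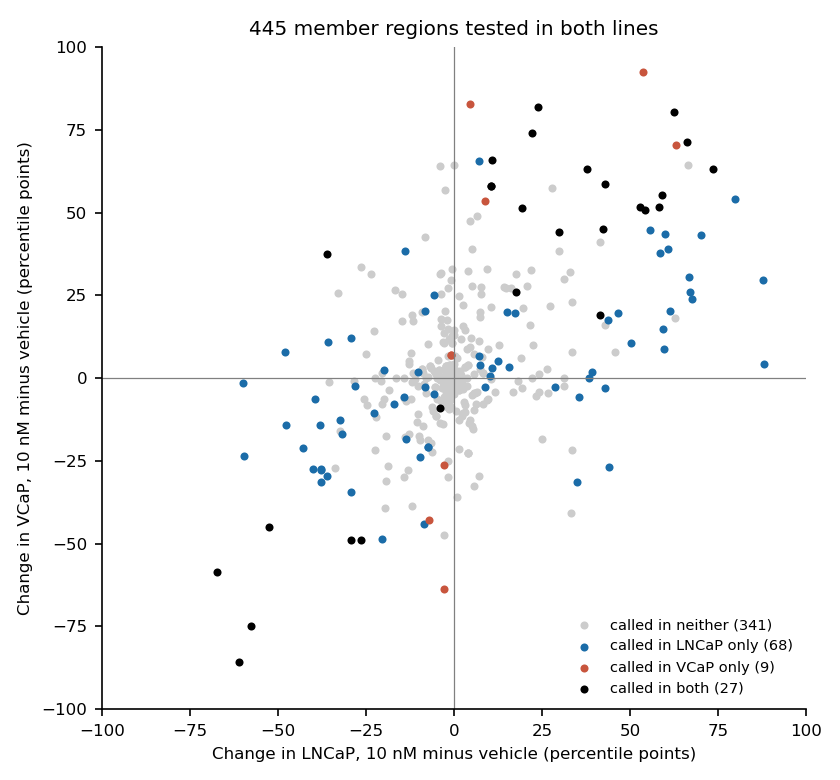
Change at 10 nM against vehicle in LNCaP (horizontal axis) and VCaP (vertical axis), in percentile points, for the 445 member regions tested in both lines, coloured by where they were called. Of the points, 341 were called in neither line, 68 in LNCaP only, 9 in VCaP only and 27 in both.

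Being called in one line only does not show a difference between lines, which was tested directly. Lines differed in their change at 10 nM at 15 of 407 regions, with the LNCaP change minus the VCaP change above 0 at 7 (1.72%, against 1.69% of all 99239 tested) and below 0 at 8 (1.97%, against 1.1%). Ranked by fold enrichment these were 4 and 21. Without LNCaP 10 nM replicate 4 or 5 the calls numbered 9 or 7, and without VCaP 10 nM replicate 1 or 2 they numbered 9. Levels over the shared conditions differed at 353 of 690 regions, 220 higher in LNCaP (31.9%, against 33.9%) and 133 higher in VCaP (19.3%, against 22.6%). With entries as deposited these were 350 and 109, and by fold enrichment 157 and 161. Of 77 own starts 14 were higher in LNCaP and 17 in VCaP (18.2% and 22.1%, against 27.2% and 28.8% of all regions near a start), and of 536 distal regions 174 and 106 (32.5% and 19.8%, against 35.0% and 21.6%). A ranked peak in all 15 LNCaP libraries and in no VCaP library was found at 17 regions near 14 genes (1.14% of member regions, against 1.05% of all), and the reverse at 2, near ABCA1 and ELOVL5 (0.134%, against 0.342%). With entries as deposited these were 11 regions near 9 genes, and 2, near ABCA1 and SQLE.

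The 40 other lipid genes, among them further enzymes of sterol synthesis, triglyceride synthesis and oxidation, were counted in the same way, and their difference from the members was not tested. In LNCaP at 10 nM, 94 of 676 regions were higher and 43 lower (13.9% and 6.36%), near 36 genes, and at low doses 36 and 8. In VCaP 28 of 564 were higher and 9 lower at 10 nM (4.96% and 1.60%), near 21 genes, and 1 and 1 at low doses. At the 50 kb limit, the last region inside near ELOVL6 (49.8 kb from the gene) had LNCaP means of 70.6 in vehicle and 81.3 at 10 nM, and that near ACSL3 (49.85 kb) 15.2 and 25.2. The first regions outside were 50.1 kb from HMGCS1, at 0 in both groups, and 50.2 kb from INSIG2, at 42.5 and 47.2.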

How the data were processed

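Omni-ATAC-seq libraries were analysed as the authors' deposited peak lists, 1 per library. Per the submitters' processing notes, MACS2 2.2.7.1, BWA 0.7.17, deepTools 3.5.1 and Trimmomatic 0.39 were used, with GRCh38 (hg38). Each deposited entry gives a score (10 times the −log10 p, cut to a whole number), a fold enrichment, a −log10 p, a −log10 q and the summit's offset in bp. Replicates were not pooled. Depth was recovered by solving fold enrichment and −log10 p for the pileup and its background under a Poisson model; read numbers are unknown, which leaves counting error without an interval.

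Lists were shortened to the shortest of the line (134750 entries in LNCaP, 104726 in VCaP) or, between lines, of all 30 (104726), so between-line values are on another scale than within-line ones. A region's rank is that of its best peak overlapping by at least 1 bp. Regions listed in 3 or more of 15 libraries (of either line for levels between lines, of each line for changes between lines) were fitted with limma 3.58.1 in R 4.3.3 on group means, with trend and robust moderation, and Benjamini-Hochberg adjusted over all of them, two-sided, at 0.05. On simulated data of 4000 regions, changes of 40 points were called for 73% in LNCaP and 41% in VCaP, and of 80 points for 100% and 92%, for 10 nM against vehicle. False calls numbered 8 in LNCaP and 9 in VCaP. The simulated ranks had normal noise cut to 0 to 100 and were adjusted over those 4000 regions only. Real ranks hold many values of 0 and were adjusted over far more regions. The shares therefore do not give the power at regions that go from no ranked peak to a ranked one.

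Named regions were up to 10 largest rises and falls per contrast among called regions whose groups did not overlap, 1 per gene, the start region of smallest p per member, and the called regions of SOAT1; of these, the text gives a choice made with values in view. A called SOAT1 region and a marker gene are not reported here. The members and lists were chosen with earlier results of these data known. Groups come from the labels. Alternatives were other list lengths, thresholds, ranking, overlap, filter, scale, a replicate block and leaving out libraries; leaving out the shallow VCaP vehicle libraries and requiring the summit inside the region were chosen after seeing the data. Sequences and positions are from RefSeq (GRCh38.p14). Distal sequences are not used here.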

Additional observations from a re-analysis of the deposited data

Results flagged for a closer look

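The change at 10 nM against vehicle differed between the lines, by limma's test of that difference, at 15 member regions near 9 genes. Values are the LNCaP change minus the VCaP change in percentile points. Near fatty acid synthesis genes it was 61.4 at the FASN region 36.1 kb from the start, -61.9 at the ACACA region 116.0 kb from its nearest start and 41.1 at the ACACA region at chr17:37230444-37230944. The last of these was lost without any one of 7 of the 12 libraries.

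Near activation genes it was 80.3 at the ACSL4 region before the start, -69.1 at the ACSL1 region 1.03 kb from a start, 27.7 at 2 adjacent ACSL1 regions that share a peak (chr4:184745897-184746397 and the next) and -55.1 at chr2:222954425-222954925 near ACSL3. The ACSL4 value was lost without any one of 9 of the 12 libraries. The ACSL1 value of -69.1 was lost without any one of 5, and with a covered centre base or a summit inside the region. At the ACSL3 region LNCaP ranks went from 27.6, 31.97 and 48.4 to 0 in all 3 libraries and VCaP ranks from 0 in all 3 to 18.99, 62.6 and 30.7. All 3 LNCaP 10 nM lists held a weaker ACSL3 entry, with summit pileups (fragments over the summit, recovered from the lists) of 26, 47 and 35 against 13, 17 and 17 in vehicle. Their ranks as deposited were 15.4, 30.2 and 20.63 against 27.6, 43.3 and 59.99, and the LNCaP fall was not called there, while the difference between lines was. VCaP ranked ACSL3 there only at 10 nM, and the difference was lost without any one of those 3 libraries. At the shared ACSL1 peak neither line alone was called, and the test of the difference failed on leaving out 11 of the 12 libraries in turn.

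Near SREBP control genes it was 60.01 at the SREBF1 region inside TOM1L2 and -44.2 at 2 adjacent SCAP regions that share a peak. Near uptake and storage genes it was 12.7 at the NPC1 region chr18:23629382-23629882, -44.4 at the SCARB1 region 35.1 kb from the start, and -7.83 at 2 adjacent regions of the SCARB1 start that share a peak. The NPC1 region went from 85.8, 86.4 and 91.5 to 97.8, 98.02 and 98.8 in LNCaP and from 97.02, 95.7 and 95.05 to 96.5, 98.2 and 94.9 in VCaP. One SCAP region was lost without any one of 6 libraries and the other without any one of 2, and the SCARB1 start without any one of 4. Those kept without each library in turn were FASN, ACACA (116.0 kb), SREBF1, NPC1 and SCARB1 (35.1 kb), and 7 of the 15 were kept with entries as deposited. Without the shallow VCaP vehicle libraries 6 of the 15 were kept, those of FASN, ACACA (116.0 kb), ACSL1 (1.03 kb), SREBF1, NPC1 and SCARB1 (35.1 kb).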

How the results depend on the processing

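Counts of called member regions (both directions together) moved by over 1.5 times as follows. With a −log10 q of at least 5, LNCaP at 10 nM went from 161 to 78 against vehicle and from 84 to 41 against low doses, VCaP from 46 to 15 and from 25 to 5, the line difference from 353 to 162 and the difference in change between lines from 15 to 8. With a peak in at least 8 libraries, LNCaP at 10 nM against low doses had 51, VCaP at 10 nM 25 against vehicle and 3 against low doses, and the difference in change 8. Ranked by fold enrichment, LNCaP at 10 nM against low doses had 137, VCaP low doses 3 (from 6) and the difference in change 25. All entries as deposited gave 11 for VCaP low doses, and normal scores gave 4 for the difference in change. A summit inside the region gave 14 for VCaP at 10 nM against low doses. Without the shallow VCaP vehicle libraries VCaP at 10 nM against vehicle had 9 and the difference in change 7. Of the changed splits not given above, a −log10 q of at least 5 gave 10 higher and 5 lower for VCaP at 10 nM against vehicle, 3 and 2 against low doses, 4 and 4 for VCaP low doses and 5 and 3 for the difference in change, and a covered centre base gave 4 and 7 for the last. The causes were not tested. Leaving out each library in turn gave 115 to 166 and 42 to 85 calls for LNCaP at 10 nM against vehicle and against low doses, 35 to 52 for LNCaP low doses, 26 to 45 and 10 to 26 for VCaP at 10 nM, 6 to 14 for VCaP low doses, 338 to 363 for the line difference and 7 to 22 for the difference in change. Deviations from the group means correlated above 0.1 in 22 of 30 same-numbered pairs in LNCaP and 27 of 30 in VCaP. Their medians were 0.123 and 0.152, against -0.0949 and -0.107 for pairs with other numbers. In LNCaP 10 of 15 libraries were closest to their own number, and in VCaP 15 of 15. Same-numbered libraries thus shared part of their spread, more clearly in VCaP. The labels do not say what the numbers stand for, and the main fits leave them out. With replicate number as a block, calls at 10 nM against vehicle numbered 187 in LNCaP and 57 in VCaP. The line difference then had 273 and the difference in change 26. Members with a start peak in all 15 libraries numbered 30 or 31 in LNCaP and 29 to 33 in VCaP under the alternatives.

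Of 117 calls of named regions, 116 kept direction and threshold with the block, 90 with normal scores, 98 as deposited, 82 of 86 testable with a peak in 8 libraries, 53 of 78 at the −log10 q limit and 32 of 51 without the shallow libraries. Signs reversed at 4, none of them called after it. They were the ACSL1 start at chr4:184824938-184825438 with the centre base covered (line difference 13.41), and the differences in change of SCAP (chr3:47442962-47443462, 25.32) and ACSL1 (chr4:184745897-184746397, -8.15) with the summit inside, and of SCARB1 (chr12:124828545-124829045, 9.18) at the −log10 q limit. Unknown read depth limits weak peaks most, since a value of 0 may hold signal below the authors' threshold or below the entries ranked.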
